A study of Homo sapiens with 16 samples.

Results

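The effect of an shRNA against TIP60 was described in hypoxic HCT116 cells, from the 4 libraries that share the hypoxic condition and differ in their shRNA: 2 of cells with the TIP60 hairpin (shTIP60) and 2 of cells with a non-targeting hairpin (shNT), out of 16 libraries in all. The libraries were taken by the line and oxygen level named in the column labels, and no measured value entered the choice. HCT116 is an established human colorectal carcinoma line. Both shRNA lines carried their hairpin stably and were kept for 24 h at 1% O2, and their normoxic partners at 21% O2, 2 libraries each, served as a second pair of groups. A line with a CDK8 hairpin (shCDK8) and an HCT116 derivative whose HIF1A gene was deleted (HIF1A-null), 2 hypoxic libraries each, were used to ask whether a difference from shNT was also a difference from other lines. Within a group the libraries are called A and B, by the lower and higher library number in the column labels. They are independent biological replicates, per the series' design text. The labels give 1 line per hairpin, so effects of the knockdown, of the hairpin's other targets and of differences between derived lines cannot be told apart.

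TIP60, encoded by KAT5, is a lysine acetyltransferase. It is the catalytic subunit of the NuA4/TIP60 complex, which acetylates histones and other proteins, exchanges histone variants and takes part in transcription and in the response to DNA damage. In low oxygen the HIF1A protein escapes hydroxylation and degradation, pairs with ARNT and binds the letters ACGTG near genes of glycolysis, angiogenesis and survival. Whether acetyltransferases such as TIP60 and Mediator kinases such as CDK8 act with HIF1A at these genes is the question that the study's choice of lines poses.

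The 4 libraries held 30871326 to 34233119 counts over 23669 gene symbols, and 17028 to 17625 symbols had at least 1 count. Levels are given as CPM, counts scaled to the library total with trimmed-mean factors of 0.939 to 0.963. The detection floor, taken as 3 counts, equals 0.0913 to 0.104 CPM here. Counts carry no molecular identifiers, so floors and counting intervals cover counting error only. The pair of shTIP60 libraries lay closer together than the pair of shNT libraries, at 11.4 and 43.7 times the variance that counting alone gives. Differences are log2 fold changes ± SE of shTIP60 over shNT, and a gene was called when edgeR's quasi-likelihood test, adjusted by Benjamini-Hochberg over 15520 genes, gave p under 0.05. These p-values measure the spread between cultures of a line.

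KAT5 (chromosome 11, 65479467 to 65487075 on GRCh37, 13 exons in the canonical transcript) stood at 87.5 and 93.6 CPM in shNT, 22.0 and 21.0 CPM in shTIP60. The groups did not overlap, and the difference was -2.08 ± 0.13 (adjusted p = 2.40e-08), or 23.7% of the shNT level. A similar depletion was present in the normoxic libraries (-2.12 ± 0.13), and KAT5 in hypoxic shTIP60 cells was also below shCDK8 (-1.90 ± 0.13) and HIF1A-null cells (-2.38 ± 0.13). The other subunits of the TIP60 complex were mostly not called. Of 19 tested, KAT5 included, 1 was higher and 1, KAT5 itself, lower, with a median of -0.01. Over all genes tested 11.3% were called higher and 10.5% lower, shares that also apply to the next lists. The member that rose was DMAP1, a scaffold subunit, at 24.5 and 19.6 CPM in shNT, 40.2 and 32.6 CPM in shTIP60 (0.72 ± 0.18, adjusted p = 0.00982). Of 16 other lysine acetyltransferases 0 were higher and 4 were lower, beside 11.3% and 10.5% of all genes. The steroid receptor coactivators NCOA1 (-1.01 ± 0.16) and NCOA3 (-0.65 ± 0.15), the acetyltransferase KAT7 (-0.54 ± 0.12) and the cohesin acetyltransferase ESCO2 (-0.68 ± 0.19) made up that count. The count of lower acetyltransferases was 3, 3, 4 and 2 in the 4 fits. CDK8 itself was at 27.9 and 28.3 CPM in shNT, 26.9 and 24.9 CPM in shTIP60 (adjusted p = 0.561). In the Mediator kinase module, 2 of 7 members were lower, the module subunit MED13L (-1.11 ± 0.15) and the CDK8 paralogue CDK19 (-0.92 ± 0.23), a count of 2, 1, 1 and 1 in the 4 fits. In bulk RNA such as this, fewer cells that express a gene and less RNA per cell cannot be told apart. DMAP1 lost its call without shNT B or shTIP60 A (adjusted p up to 0.124), and NCOA3 without shNT B (adjusted p up to 0.0732). KAT7 was not called without shTIP60 B (adjusted p up to 0.0670), and ESCO2 without shNT A or shTIP60 B (adjusted p up to 0.168). CDK19 lost its call without shNT B, shTIP60 A or shTIP60 B (adjusted p up to 0.0959).

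Across the transcriptome 3383 of 15520 genes (21.8%) were called, 1755 higher (11.3%) and 1628 lower (10.5%) in shTIP60, with a median over all genes of -0.00245. A difference of more than 2-fold was found in 868 of the higher and 437 of the lower genes. Counts of list members in hypoxia against shNT are to be read beside the shares of 11.3% higher and 10.5% lower. For each of the 3383 called genes the libraries of the groups did not overlap, as for 63.9% of all genes tested. Non-overlap implies the same sign in both series of library numbers, which 75.9% of all genes tested had. Calls were made from these same libraries, so neither property is separate support for them, here or for single genes below. The count depended on single libraries when each of the 4 was left out in turn. It changed little without shNT library A and fell further without shNT library B or either shTIP60 library. A fit with 1 library in a group assumes that it varies like the other groups. Where the count of a list is given for these 4 fits, they stand in the same order: without shNT A, shNT B, shTIP60 A and shTIP60 B. Of 217 called genes examined by name, 142 kept the call in all 4 of these fits and 75 lost it in at least 1, and those named in the text are given with the libraries concerned.

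The 12 highest and 12 lowest called genes were taken among those whose higher group averaged at least 5 CPM and whose libraries did not overlap. Some of the highest had no counts in shNT cells. GJA1, which encodes the gap junction protein connexin 43 (chromosome 6, 121756741 to 121770873), had 0 counts in both shNT libraries and 38.8 and 46.6 CPM in shTIP60, at least 843-fold higher against a floor of 3 counts over the group. TCF21, a mesodermal transcription factor, had 0 counts in shNT and 15.3 and 16.2 CPM in shTIP60, at least 311-fold higher. Both were thus seen in shTIP60 and not in shNT at this depth, and GJA1 reached 101 ± 22.0 CPM (SD, n = 2) in normoxic shTIP60 cells.

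Of the rest of the 12 highest, IGFBP3, a binding protein of insulin-like growth factors (chromosome 7, 45951844 to 45961473), was at 42.7 and 27.4 CPM in shNT, 1452 and 1532 CPM in shTIP60 (5.41 ± 0.27, adjusted p = 2.07e-09). MUC16, the mucin known as CA-125, was at 0.483 and 0.860 CPM in shNT, 80.8 and 88.3 CPM in shTIP60 (6.96 ± 0.32). The groups were separated by more than 10-fold in both genes. PRF1, which encodes the pore-forming protein perforin, was at 1.76 and 2.38 CPM in shNT, 109 and 106 CPM in shTIP60 (5.69 ± 0.31). The leukocyte integrin gene ITGAD was at 0.0690 and 0.0661 CPM in shNT, 11.6 and 12.2 CPM in shTIP60, with 4 counts in shNT against 779 in shTIP60, a ratio of 176 (95% counting interval 68.6 to 649). SYTL5, a Rab27-binding protein, rose by 6.57 ± 0.42, the annexin ANXA10 by 6.02 ± 0.32 and the intestinal keratin KRT20 by 5.31 ± 0.44. The placental alkaline phosphatases ALPP (7.21 ± 0.43) and ALPPL2 are near-identical copies, so reads may have been split between them. ALPPL2 had 2 counts in shNT against 370 in shTIP60, a ratio of 167 (95% counting interval 46.0 to 1390). H19, an imprinted non-coding RNA, lay just outside the 12 at 13.4 and 12 CPM in shNT, 348 and 429 CPM in shTIP60 (4.93 ± 0.36) and was singled out after its values were seen.

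PRF1 and ITGAD are known from leukocytes, so markers of other cell types were counted. Of 18 leukocyte markers 8 passed the filter on low counts and 1, the lysosomal glycoprotein CD68, was called (39.0 and 39.8 CPM in shNT, 99.1 and 117 CPM in shTIP60, 1.45 ± 0.19). All 8 had estimates above 0, with a median of 1.20. A low gene can pass the filter through 1 group where it is high. Sign counts and medians of tested markers, here and below, are therefore no support for a rise of a list. The summed level of the list was 42.2 and 43.4 CPM in shNT and 106 and 122 CPM in shTIP60. Most of each sum was CD68 itself. Of the 18 markers 6 had 3 counts or fewer in the 4 libraries together, among them PTPRC, CD3D, CD3E, NKG7 and MS4A1, the last with none. Of the fibroblast markers 7 of 16 were at that floor, among them COL1A2, DCN, LUM and PDGFRA, and of the endothelial markers 3 of 12, among them CDH5. The summed levels were 104 to 119 CPM in shNT and 133 CPM in both shTIP60 libraries for fibroblast markers, and 113 to 141 and 147 to 153 CPM for endothelial markers. The colon epithelial markers, 14 of 19 of which passed the filter, summed to 7630 to 10100 CPM in shNT and 10500 to 10700 CPM in shTIP60, with KRT8, KRT18, KRT20, CEACAM1 and MUC2 higher and EPCAM and CA2 lower. Of 6 endothelial markers tested 3 were called higher (VWF, TIE1 and ROBO4), 5 were above 0 and the median was 1.00. That count was 0, 2, 1 and 1 in the 4 fits. Of 8 fibroblast markers tested 2 were called higher (DES and VIM), 7 were above 0 and the median was 0.63, and that count was 1, 1, 2 and 2. The part of other cells in the results was not tested.

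The 12 lowest genes were led by ANKRD22, an ankyrin repeat gene with 338 counts in shNT and 2 in shTIP60, a ratio of 187 (95% counting interval 51.3 to 1550). RNF43, a membrane ubiquitin ligase that removes Wnt receptors from the cell surface (chromosome 17, 56431037 to 56494956), was at 109 and 99.3 CPM in shNT, 2.49 and 1.31 CPM in shTIP60 (-5.78 ± 0.22, adjusted p = 4.13e-10). Both shTIP60 libraries were more than 30-fold below both shNT libraries. The phosphodiesterase PDE4B was at 124 and 139 CPM in shNT, 8.23 and 9.25 CPM in shTIP60 (-3.92 ± 0.18). The Wnt antagonist DACT1 (-4.85 ± 0.44), the glutamate transporter SLC1A3 (-4.74 ± 0.32) and the glutamate receptor subunit GRIN2B (-4.36 ± 0.26) followed. So did the membrane trafficking protein MAL2 (-4.10 ± 0.18), the chromatin organizer SATB1 (-4.06 ± 0.42) and the thyroid hormone receptor THRB (-3.81 ± 0.33), with COBLL1 (-4.35 ± 0.33) and VSNL1 (-4.29 ± 0.40). NFIB, a nuclear factor I gene, was lower than shNT (-5.41 ± 0.33) and at a level like that of shCDK8 cells, 0.458 ± 0.0835 against 0.458 ± 0.151 CPM (difference 0.01 ± 0.44, adjusted p = 0.992).

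**Figure D1:**
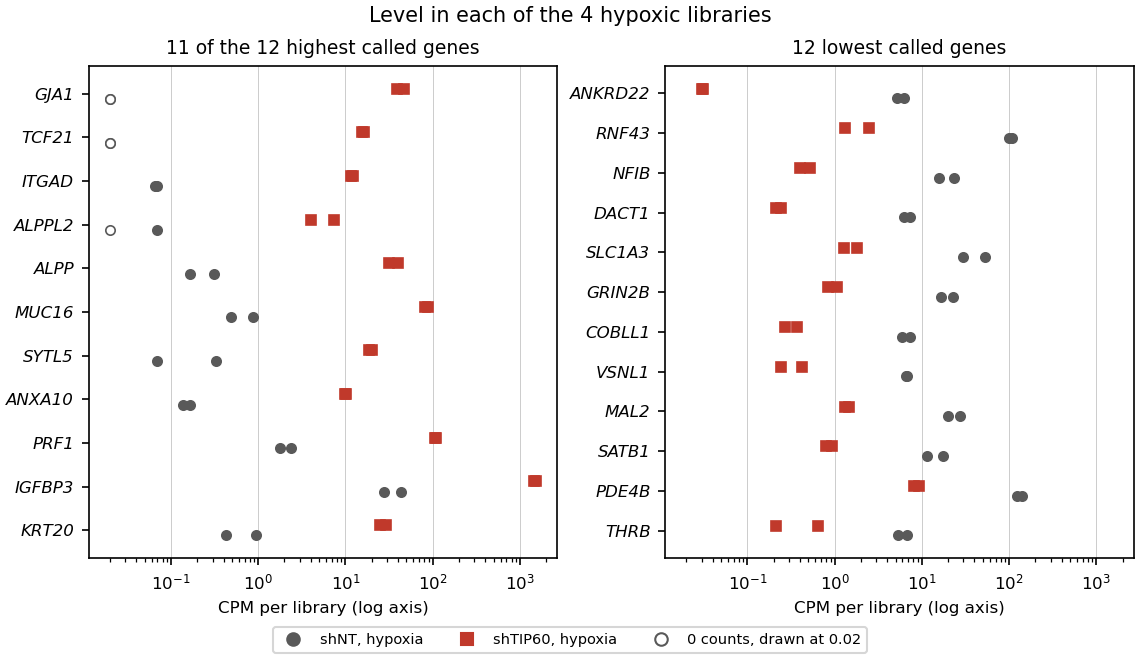
Level of 11 of the 12 highest and of the 12 lowest called genes in each of the 4 hypoxic libraries, in CPM on a log axis, with grey circles for shNT and red squares for shTIP60; open circles are libraries with 0 counts, drawn at 0.02. Only genes whose libraries did not overlap between the lines were eligible, so their separation here was set by the choice.

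Genes known to be induced by hypoxia were compared between the lines. Of a panel of 12 genes widely used to mark hypoxia, 1 was higher and 2 were lower than in hypoxic shNT cells, 3 of 12 beside 21.8% of all genes. In the 4 fits 1, 1, 0 and 1 were higher and 1, 2, 1 and 1 lower. VEGFA, the endothelial growth factor, was at 289.8 and 283 CPM in shNT, 484 and 401 CPM in shTIP60 (0.63 ± 0.14, adjusted p = 0.00505). CA9, a carbonic anhydrase of the cell surface, was at 56.0 and 44.2 CPM in shNT, 32.7 and 29.4 CPM in shTIP60 (-0.69 ± 0.22, adjusted p = 0.0343), and the ankyrin repeat gene ANKRD37 at 181 and 278 CPM in shNT, 107 and 96.6 CPM in shTIP60 (-1.17 ± 0.23, adjusted p = 0.00195). The groups did not overlap in these 3 genes, and all 3 remained above their normoxic levels, which in shTIP60 were 57.5 ± 3.64, 1.84 ± 0.122 and 2.01 ± 0.276 CPM (SD, n = 2). VEGFA was not called without shTIP60 A (adjusted p up to 0.0898), and CA9 without shNT A, shTIP60 A or shTIP60 B (adjusted p up to 0.202).

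The other 9 panel genes were not called. ANGPTL4, an inhibitor of lipoprotein lipase, was at 1509.6 and 1031 CPM in shNT, 1308 and 1230.4 CPM in shTIP60 (-0.00 ± 0.19), and the vasodilator peptide gene ADM at 601 and 760.3 CPM in shNT, 678 and 680.1 CPM in shTIP60 (-0.00 ± 0.17). In both the shTIP60 libraries lay inside the range of the shNT libraries. The stress gene NDRG1 (-0.07 ± 0.23), the prolyl hydroxylase P4HA1 (-0.07 ± 0.17), the histone demethylase KDM3A (-0.09 ± 0.18) and the metabolic switch genes PDK1 (-0.05 ± 0.18) and LDHA (-0.03 ± 0.15) had estimates within 1 SE of 0. BNIP3, a mitophagy receptor, was at -0.19 ± 0.16 and the mTOR inhibitor DDIT4 at -0.15 ± 0.19. A missed threshold does not show that these levels were equal: their SE ran from 0.15 to 0.23 on the log2 scale.

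**Figure D2:**
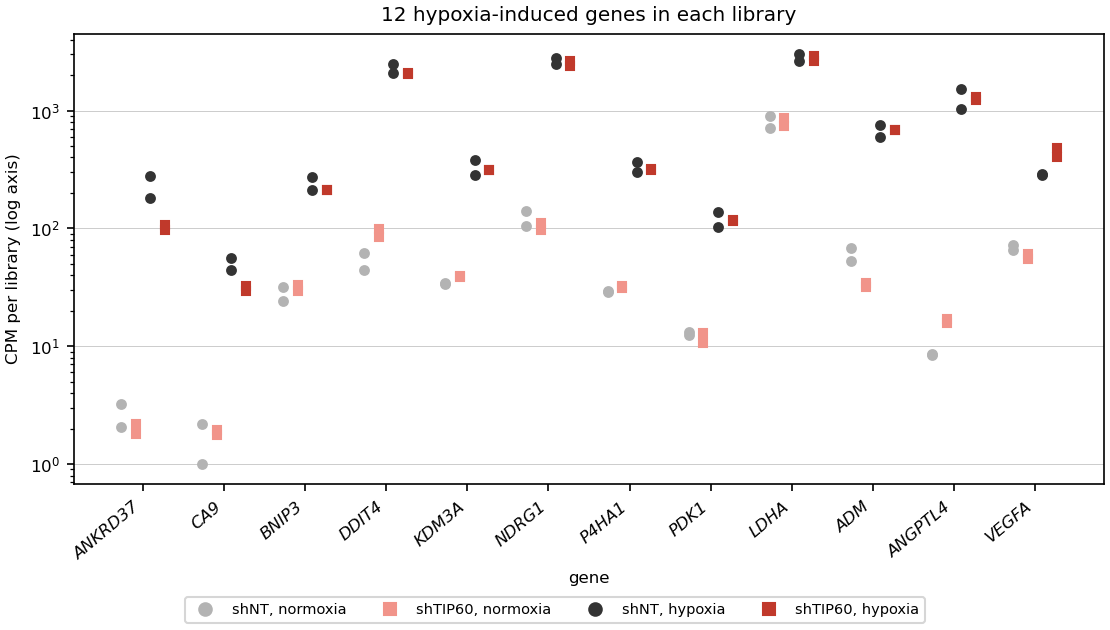
CPM on a log axis of 12 hypoxia-induced genes in each library of shNT (circles) and shTIP60 (squares), in normoxia (pale) and hypoxia (dark). Every gene is higher in the hypoxic than in the normoxic libraries of both lines, and the hypoxic libraries separate by line for ANKRD37, CA9 and VEGFA.

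A longer list of 75 tested core hypoxia genes had 15 members higher and 7 lower, beside 11.3% and 10.5% of all genes, with a median of 0.03. The heme oxygenase HMOX1 was higher (18.5 and 16.7 CPM in shNT, 106 and 144 CPM in shTIP60, 2.82 ± 0.15), as was the glucose transporter SLC2A3 (241 and 266 CPM in shNT, 1439 and 1431 CPM in shTIP60, 2.50 ± 0.22), whose reads may be shared with its near-identical copy SLC2A14. The carbonic anhydrase CA12 was another (11.1 and 10.6 CPM in shNT, 54.4 and 56.1 CPM in shTIP60, 2.35 ± 0.15). For each of these 3 both shTIP60 libraries were more than 4-fold above both shNT libraries. Several of the lower members were outside the naming rule and singled out after their values were seen. The chemokine receptor CXCR4 was one (9.73 and 20.7 CPM in shNT, 3.62 and 3.32 CPM in shTIP60, -2.13 ± 0.31). Others were FAM13A (-1.17 ± 0.16), the glycogen-targeting phosphatase subunit PPP1R3B (-0.84 ± 0.19), ZNF395 (-0.64 ± 0.12) and the glycolytic enzyme ENO1 (-0.44 ± 0.14). Without shNT library A, shNT library B, shTIP60 library A and shTIP60 library B in turn, the counts were 13 and 5, 10 and 5, 6 and 5, and 10 and 4. Of 28 genes of glycolysis and lactate export 4 were higher, SLC2A3, ENO3 (0.87 ± 0.17), C12orf5 (1.00 ± 0.21) and the lactate transporter SLC16A1 (0.46 ± 0.13), and ENO1 was lower. Their counts were 4, 3, 3 and 3 higher and 0 lower in the 4 fits. PPP1R3B lost its call without shNT B or shTIP60 B (adjusted p up to 0.0620), and ENO1 without any 1 of the 4 libraries (adjusted p up to 0.194). SLC16A1 was not called without any 1 of the 4 libraries (adjusted p up to 0.112).

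Among the HIF subunits and their regulators, 2 of 14 were higher and 3 lower, and the count of higher members was 1, 0, 0 and 1 in the 4 fits. EPAS1, which encodes HIF2A, was at 182 and 199 CPM in shNT, 86.8 and 97.6 CPM in shTIP60 (-1.05 ± 0.13, adjusted p = 2.90e-05), and both shTIP60 libraries were below both shNT libraries. The dimer partner ARNT (-0.55 ± 0.16) and the coactivator-binding protein CITED4 (-1.22 ± 0.27) were lower, and the asparaginyl hydroxylase HIF1AN (0.46 ± 0.11) and ARNT2 (0.56 ± 0.17) higher. HIF1A mRNA was at 61.2 and 70.5 CPM in shNT, 50.6 and 51.8 CPM in shTIP60 and did not pass the test (-0.36 ± 0.15, adjusted p = 0.0904). Its libraries did not overlap between the lines, as was so for 63.9% of all genes tested. ARNT lost its call without shNT B, shTIP60 A or shTIP60 B (adjusted p up to 0.193), and CITED4 without shNT A (adjusted p up to 0.0545). HIF1AN was not called without shNT B or shTIP60 A (adjusted p up to 0.0990), and ARNT2 without any 1 of the 4 libraries (adjusted p up to 0.173).

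Against the other lines the same 75 genes gave a different count. Compared with HIF1A-null cells in hypoxia, 70 were higher in shTIP60 and 0 lower, with a median of 1.61, beside 25.0% and 24.6% of all genes tested (49.6% in either direction, 7700 genes). Compared with shCDK8 cells 38 were higher and 4 lower, with a median of 0.41, beside 18.1% of all genes in each direction (36.2%, 5618 genes). These comparisons use the same shTIP60 libraries, and the differences between their counts were not tested. With library totals in place of trimmed-mean factors the median of all genes against HIF1A-null moved from -0.00501 to 0.143, and the calls split into 4698 higher and 2726 lower instead of 3877 and 3823.

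**Figure D3:**
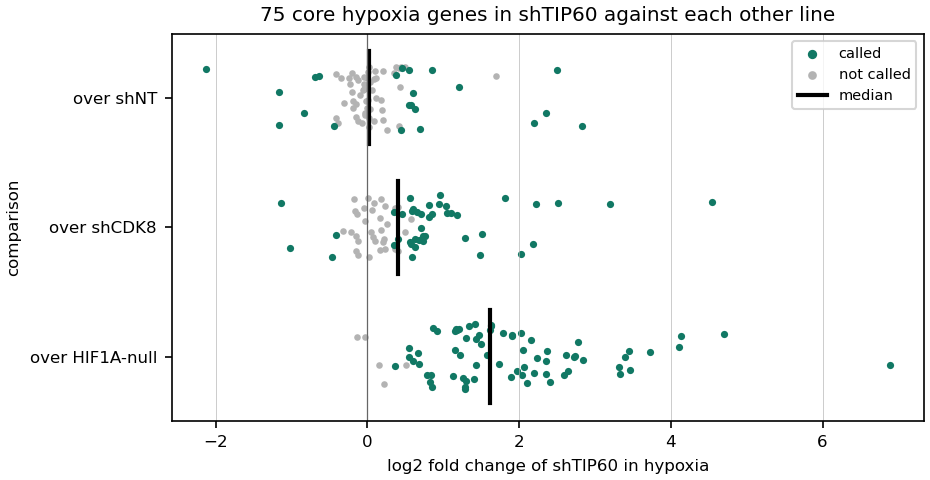
Log2 fold change of hypoxic shTIP60 cells over shNT, shCDK8 and HIF1A-null cells for 75 core hypoxia genes (1 point each, green where called, black bar at the median). The medians are 0.03 over shNT, 0.41 over shCDK8 and 1.61 over HIF1A-null.

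The promoters of the 2 panel genes that fell can be read against the HIF motif. The 200 bases before the start site are shown for each (RefSeq, GRCh38.p14), 5′ to 3′ on the gene's strand, with the core letters ACGTG, or CACGT where it lies on the other strand, in capitals. CA9 is at chr9:35673728-35673927 and ANKRD37 at chr4:185396641-185396840, both on the plus strand.
CA9: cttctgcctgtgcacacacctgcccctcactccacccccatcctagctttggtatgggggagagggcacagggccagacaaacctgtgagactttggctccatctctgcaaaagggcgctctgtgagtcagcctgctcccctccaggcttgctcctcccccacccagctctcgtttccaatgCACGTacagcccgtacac
ANKRD37: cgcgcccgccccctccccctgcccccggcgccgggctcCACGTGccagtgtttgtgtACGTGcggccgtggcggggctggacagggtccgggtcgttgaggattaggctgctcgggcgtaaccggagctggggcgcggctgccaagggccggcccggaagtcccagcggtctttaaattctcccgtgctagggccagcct
The core starts 18 bases before the start of CA9 and, on both strands together, 162, 161 and 143 bases before that of ANKRD37, where the first pair overlap. In windows from 250 bases before to 50 after the start, 35 of 62 core hypoxia genes with an entry (56.5%) held the core, 6 of 13 called ones (46.2%) and 21.6% of all 27305 promoters in the table. A match is a description of the letters and not a binding site.

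Most genes of the mitosis list were called lower. Of 32 tested, 25 were lower and 0 higher, beside 10.5% and 11.3% of all genes, with a median of -0.69. The spindle checkpoint kinase TTK was at 48.7 and 70.2 CPM in shNT, 25.6 and 26.6 CPM in shTIP60 (-1.19 ± 0.20, adjusted p = 6.24e-04), the kinesin KIF20A at 130.4 and 165 CPM in shNT, 81.1 and 76.8 CPM in shTIP60 (-0.90 ± 0.15, adjusted p = 3.94e-04), and the kinetochore motor CENPE at 35.2 and 44.7 CPM in shNT, 21.1 and 18.2 CPM in shTIP60 (-1.02 ± 0.19). In all 3 both shTIP60 libraries lay below both shNT libraries. KIF2C, a microtubule depolymerase, changed by -0.82 ± 0.16. Cyclin B1 (CCNB1, -0.70 ± 0.14), cyclin B2 (CCNB2, -0.76 ± 0.17) and the mitotic kinase CDK1 (-0.66 ± 0.19) were singled out after their values were seen. So were the checkpoint kinase BUB1B (-0.77 ± 0.16), the centromeric histone CENPA (-0.85 ± 0.18), the kinesin KIF11 (-0.72 ± 0.16) and the proliferation marker MKI67 (-0.70 ± 0.20). The size of these changes was modest: 1 of the 25 passed a test against 1.5-fold. The count was 24 without shNT library A, 9 without shNT library B, 18 without shTIP60 library A and 10 without shTIP60 library B. In normoxia 7 members were lower, beside 8.13% of all genes, with a median of -0.36, and in hypoxia 21 members were lower than in each of the 3 other lines, beside 4.14% of all genes. CCNB2 lost its call without shNT B (adjusted p up to 0.108), and CDK1 without shNT B, shTIP60 A or shTIP60 B (adjusted p up to 0.268). BUB1B was not called without shNT B (adjusted p up to 0.0518), and KIF11 without shNT B or shTIP60 B (adjusted p up to 0.0627). MKI67 lost its call without shNT A or shTIP60 B (adjusted p up to 0.183).

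The promoters of 3 of them are shown because many cell cycle genes carry the cell cycle homology region (CHR), a motif near the start site that the DREAM and MuvB complexes bind.
CCNB1: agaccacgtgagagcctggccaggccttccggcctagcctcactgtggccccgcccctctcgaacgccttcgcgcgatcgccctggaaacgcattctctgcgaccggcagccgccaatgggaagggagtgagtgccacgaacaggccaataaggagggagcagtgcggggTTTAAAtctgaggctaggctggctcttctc
CCNB2: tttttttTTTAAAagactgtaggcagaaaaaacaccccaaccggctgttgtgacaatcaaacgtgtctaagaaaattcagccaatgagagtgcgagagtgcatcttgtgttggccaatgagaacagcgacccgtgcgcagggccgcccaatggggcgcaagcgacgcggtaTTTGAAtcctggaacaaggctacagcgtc
KIF11: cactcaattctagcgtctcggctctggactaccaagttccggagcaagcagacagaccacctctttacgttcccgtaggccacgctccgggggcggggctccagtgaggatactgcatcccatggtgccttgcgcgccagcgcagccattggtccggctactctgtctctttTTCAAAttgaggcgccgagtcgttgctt
They cover chr5:69166950-69167149, chr15:59104946-59105145 and chr10:92592930-92593129, all on the plus strand of GRCh38.p14, with the CHR letters (TTTGAA or TTTAAA, either strand) in capitals. The letters start 30 bases before the start of CCNB1, 193 and 29 before that of CCNB2 and 28 before that of KIF11. Of 26 mitosis genes with a promoter entry 21 (80.8%) held such letters, as did 18 of the 20 called ones and 24.3% of all promoters.

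Other lists of the cell cycle are given beside the same shares of all genes, 11.3% higher and 10.5% lower. Of 40 genes of DNA replication 1 was higher and 4 were lower (median -0.22). The clamp loader subunit RFC5 was at 78.3 and 72.7 CPM in shNT, 47.3 and 45.5 CPM in shTIP60 (-0.70 ± 0.13), the origin factor ORC6 (-0.70 ± 0.19) and the ribonucleotide reductase subunit RRM1 (-0.52 ± 0.14) were lower, and cyclin E1 (CCNE1, 0.68 ± 0.18) was higher. The lower count fell to 2, 2 and 1 without shNT B, shTIP60 A and shTIP60 B. Of 29 DNA repair genes 6 were lower and 1 higher (median -0.33), among the lower the helicases BRIP1 (18.6 and 18.3 CPM in shNT, 9.40 and 9.25 CPM in shTIP60, -0.98 ± 0.17) and BLM (-0.85 ± 0.18), the BRCA1 partner BARD1 (-0.96 ± 0.19) and the crosslink repair gene FANCI (-0.72 ± 0.15). For RFC5 and BRIP1 the lines did not overlap. The median GC content of the DNA repair list was 42.4%. Among all genes with a GC value, the fifth with a median of 43.3% had 15.2% lower and 8.13% higher. The part of GC content in the DNA repair count was not tested. The G1 regulators went in both directions: CDK6 was at 54.7 and 80.0 CPM in shNT, 23.2 and 25.1 CPM in shTIP60 (-1.48 ± 0.18), while cyclin D1 (CCND1, 0.74 ± 0.17), cyclin D3 (CCND3, 1.32 ± 0.23) and the CDK inhibitor CDKN1A (331 and 322 CPM in shNT, 564 and 523 CPM in shTIP60, 0.74 ± 0.12) were higher. CDKN1A is also a p53 target, and of 30 p53 targets 10 were higher and 3 lower, with a median of 0.24 (10, 8, 7 and 7 higher and 2, 2, 2 and 1 lower in the 4 fits). Of 17 D cyclins, partner kinases and CDK inhibitors 4 were higher and 2 lower, and in the 4 fits 3, 2, 2 and 3 higher and 2, 2, 1 and 1 lower. TP53I3, an oxidoreductase, was at 15.3 and 10.3 CPM in shNT, 47.3 and 41.5 CPM in shTIP60 (1.79 ± 0.21), the stress cytokine GDF15 at 401 and 456 CPM in shNT, 832 and 818 CPM in shTIP60 (0.95 ± 0.13) and GADD45A at 94.9 and 96.6 CPM in shNT, 52.6 and 58.4 CPM in shTIP60 (-0.79 ± 0.13), the first pair higher and GADD45A lower. Against hypoxic HIF1A-null cells the p53 list gave 5 higher and 16 lower (median -0.40), beside 25.0% and 24.6% of all genes. Against hypoxic shCDK8 cells it gave 3 higher and 9 lower (median -0.23), beside 18.1% of all genes in each direction. Of the p53 targets 1 was higher and 3 were lower than in all 3 other lines, beside 5.39% and 4.14% of all genes. ORC6 was not called without shNT B or shTIP60 B (adjusted p up to 0.114), and RRM1 without shNT B, shTIP60 A or shTIP60 B (adjusted p up to 0.133). CCNE1 lost its call without shNT B or shTIP60 B (adjusted p up to 0.154), and FANCI without shTIP60 B (adjusted p up to 0.0526). CCND1 was not called without shNT B or shTIP60 A (adjusted p up to 0.0645).

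Interferon-stimulated genes were called in 1 direction. Of 34 tested, 18 were higher and 0 lower, beside 11.3% and 10.5% of all genes, 28 estimates were above 0 and 6 below, and the median was 0.64. The antiviral oligoadenylate synthetase OASL was at 3.48 and 1.92 CPM in shNT, 19 and 18.3 CPM in shTIP60 (2.79 ± 0.31, adjusted p = 1.08e-05) and OAS1 at 0.173 and 0.397 CPM in shNT, 5.07 and 4.75 CPM in shTIP60 (4.08 ± 0.73). The exonuclease ISG20 (9.63 and 7.44 CPM in shNT, 40.3 and 37.2 CPM in shTIP60, 2.18 ± 0.20) and the ADP-ribosyltransferase PARP14 (12.7 and 15.5 CPM in shNT, 35.8 and 34.9 CPM in shTIP60, 1.33 ± 0.16) rose with them, and these 4 had the smallest adjusted p of the list. In each of these the shTIP60 libraries were above both shNT libraries. The following were chosen after their values were seen. IFI6 rose (16.5 and 12.8 CPM in shNT, 69.4 and 56.7 CPM in shTIP60, 2.11 ± 0.53), as did the tetherin gene BST2 (0.414 and 0.827 CPM in shNT, 2.92 and 2.95 CPM in shTIP60, 2.23 ± 0.46). IFIT3 (1.54 ± 0.37), MX1 (1.41 ± 0.37) and the ubiquitin-like modifier ISG15 (79.2 and 64.5 CPM in shNT, 129 and 141 CPM in shTIP60, 0.91 ± 0.26) rose as well. Several of these, BST2, IFIT3 and MX1 among them, stayed below 4 CPM even in shTIP60. The count was 15 without shNT library A, 6 without shNT library B, 7 without shTIP60 library A and 10 without shTIP60 library B, and 1 member was called lower without shNT library A. In normoxia 21 were higher and 0 lower, with a median of 0.94, beside 10.3% and 8.13% of all genes (18.4%, 2857 genes). In hypoxia 12 were higher than in all 3 other lines, beside 5.39% of all genes. Against HIF1A-null cells 17 were higher and 7 lower, beside 25.0% and 24.6% of all genes. Against shCDK8 cells 20 were higher and 0 lower, beside 18.1% of all genes in each direction. IFI6 lost its call without shNT B or shTIP60 A (adjusted p up to 0.0931), and IFIT3 without shNT B or shTIP60 A (adjusted p up to 0.0762). MX1 was not called without shNT B, shTIP60 A or shTIP60 B (adjusted p up to 0.124), and ISG15 without shNT B, shTIP60 A or shTIP60 B (adjusted p up to 0.149).

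Interferon-stimulated promoters carry the interferon-stimulated response element (ISRE), bound by the ISGF3 complex, and 3 of them are shown with its letters in capitals: GAAA, any 2 bases and GAAA again, or TTTC, any 2 bases and TTTC where they lie on the other strand.
IFI6: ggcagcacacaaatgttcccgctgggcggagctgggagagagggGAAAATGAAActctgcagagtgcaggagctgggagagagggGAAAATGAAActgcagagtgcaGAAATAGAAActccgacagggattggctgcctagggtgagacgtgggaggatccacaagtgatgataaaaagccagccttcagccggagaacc
BST2: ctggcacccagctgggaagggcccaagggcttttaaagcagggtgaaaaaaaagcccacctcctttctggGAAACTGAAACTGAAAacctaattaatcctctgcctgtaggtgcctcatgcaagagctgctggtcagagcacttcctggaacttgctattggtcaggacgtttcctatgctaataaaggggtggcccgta
IFIT3: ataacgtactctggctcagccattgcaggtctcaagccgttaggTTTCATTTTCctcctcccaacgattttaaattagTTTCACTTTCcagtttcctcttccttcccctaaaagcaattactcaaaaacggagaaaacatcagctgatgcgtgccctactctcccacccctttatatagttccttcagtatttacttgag
They cover chr1:27672193-27672392 and chr19:17405631-17405830 on the minus strand and chr10:89327797-89327996 on the plus strand of GRCh38.p14. The letters start 156, 115 and 93 bases before the start of IFI6, 130 and 124 before that of BST2, where they overlap, and 156 and 122 before that of IFIT3. Of 27 interferon-stimulated genes with a promoter entry 19 (70.4%) held the letters, as did 11 of the 15 called ones (73.3%) and 3.65% of all promoters.

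Of 20 genes of antigen presentation 6 were higher and 0 lower (median 0.42), beside 11.3% and 10.5% of all genes. In normoxia 10 were higher, beside 10.3% of all genes. The count in hypoxia was 4, 5, 3 and 4 without shNT A, shNT B, shTIP60 A and shTIP60 B. The immunoproteasome subunit PSMB9 was at 9.52 and 9.26 CPM in shNT, 29.7 and 26.5 CPM in shTIP60 (1.58 ± 0.18), the class II gene HLA-DRA at 2.55 and 2.65 CPM in shNT, 9.74 and 7.76 CPM in shTIP60 (1.75 ± 0.25) and HLA-B at 396 and 369 CPM in shNT, 571 and 567 CPM in shTIP60 (0.57 ± 0.14). HLA-DRB1 (2.12 ± 0.25) has near-identical copies and its counts are uncertain. Of 25 inflammatory and NF-kB genes 3 were higher and 1 lower, beside 11.3% and 10.5% of all genes, and the count of higher members was 1 in each of the 4 fits. TNFAIP2 was the one with the smallest adjusted p (92.8 and 83.4 CPM in shNT, 273 and 290.0 CPM in shTIP60, 1.67 ± 0.17). HLA-B lost its call without shNT B or shTIP60 A (adjusted p up to 0.0718).

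NRF2 targets encode enzymes of glutathione synthesis, quinone and heme detoxification and NADPH supply. Of 27 tested, 12 were higher and 3 lower, beside 11.3% and 10.5% of all genes, with a median of 0.51. The glutamate-cysteine ligase subunits GCLM (17.2 and 19.7 CPM in shNT, 47.0 and 48.0 CPM in shTIP60, 1.36 ± 0.14) and GCLC (60.9 and 66.5 CPM in shNT, 125 and 142 CPM in shTIP60, 1.07 ± 0.13) both rose, and so did the efflux pump ABCC2 (20.3 and 25.5 CPM in shNT, 137 and 146 CPM in shTIP60, 2.63 ± 0.28). HMOX1 belongs to this list as well as to the hypoxia list. No library of shNT reached a library of shTIP60 in these genes. Against hypoxic HIF1A-null cells 8 of the list were higher and 8 lower (median -0.05), beside 25.0% and 24.6% of all genes. Against hypoxic shCDK8 cells 12 were higher and 3 lower (median 0.67), beside 18.1% of all genes in each direction. The normoxic count of the list stands beside 10.3% of all genes higher and 8.13% lower. In normoxia 14 members were higher and 2 lower, and in hypoxia the count of higher members was 10 without shNT library A, 7 without shNT library B, 8 without shTIP60 library A and 8 without shTIP60 library B, and that of lower members 2, 1, 0 and 0. Of 15 iron-handling genes 7 were higher and 2 lower, and 5, 7, 6 and 5 higher and 1, 0, 0 and 0 lower in the 4 fits. The ferritin chains FTH1 (1135 and 977 CPM in shNT, 2445 and 2205 CPM in shTIP60, 1.14 ± 0.16) and FTL (0.73 ± 0.18) were higher, and their many processed copies make these counts uncertain. The transferrin receptor TFRC (153 and 118 CPM in shNT, 309 and 317 CPM in shTIP60, 1.21 ± 0.16) and the siderophore-binding protein LCN2 (2.00 and 1.29 CPM in shNT, 10.4 and 13.1 CPM in shTIP60, 2.83 ± 0.34) were higher as well. FTL was not called without shNT A or shTIP60 B (adjusted p up to 0.0822).

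Several keratins were called higher, and genes of epithelial adhesion moved in both directions. Of 16 keratins 9 were higher and 0 lower, beside 11.3% and 10.5% of all genes, 3 estimates were below 0 and the median was 0.85. KRT7 was at 10.5 and 9.92 CPM in shNT, 163 and 291 CPM in shTIP60 (4.47 ± 0.36), KRT15 at 165 and 140.4 CPM in shNT, 372 and 382 CPM in shTIP60 (1.3 ± 0.16) and KRT81, which has near-identical relatives, at 0.725 and 0.298 CPM in shNT, 2.00 and 2.53 CPM in shTIP60 (2.15 ± 0.43). The keratins of simple epithelium KRT8 (2633 and 1959 CPM in shNT, 4098 and 3982 CPM in shTIP60, 0.82 ± 0.18) and KRT18 (0.74 ± 0.17) and the intestinal mucin MUC2 (0.0690 and 0.132 CPM in shNT, 2.92 and 3.56 CPM in shTIP60, 4.95 ± 0.52), all outside the naming rule, were higher. In each the shTIP60 libraries were above both shNT libraries. The keratin count was 9, 4, 8 and 7 without shNT A, shNT B, shTIP60 A and shTIP60 B, and 1 keratin was called lower without shNT B. In normoxia 11 were higher, with a median of 1.70, beside 10.3% of all genes. Against hypoxic shCDK8 cells 6 were higher and 1 lower (median 0.17), beside 18.1% of all genes in each direction. Against HIF1A-null cells 3 were higher and 1 lower (median 0.07), beside 25.0% and 24.6% of all genes. Of the keratins 3 were higher than in all 3 other lines, beside 5.39% of all genes. Among 32 genes of epithelial adhesion and its regulators 5 were higher and 8 lower, and 5, 3, 4 and 3 higher in the 4 fits. The epithelial factor GRHL2 was at 22.9 and 22.9 CPM in shNT, 2.06 and 3.04 CPM in shTIP60 (-3.16 ± 0.22, adjusted p = 6.43e-08), OVOL1 at -1.10 ± 0.19 and the epithelial splicing regulator ESRP1 at -0.77 ± 0.13, while the mesenchymal factor TWIST1 was lower too (6.87 and 6.91 CPM in shNT, 1.32 and 1.16 CPM in shTIP60, -2.47 ± 0.29). Vimentin (VIM, 11.6 and 9.69 CPM in shNT, 15.2 and 18.4 CPM in shTIP60, 0.66 ± 0.17), a mesenchymal filament, was higher and the adhesion molecule EPCAM (-0.41 ± 0.11) lower. KRT8 lost its call without shNT B (adjusted p up to 0.0691), and KRT18 without shNT B or shTIP60 B (adjusted p up to 0.0682). VIM was not called without shNT B or shTIP60 B (adjusted p up to 0.133), and EPCAM without shNT B, shTIP60 A or shTIP60 B (adjusted p up to 0.147).

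Among cell surface and matrix genes, of 19 integrins and partners 3 were higher and 5 lower, and 4, 2, 2 and 3 higher and 4, 4, 3 and 4 lower in the 4 fits. ITGB8 fell (33.6 and 36.9 CPM in shNT, 3.16 and 2.07 CPM in shTIP60, -3.75 ± 0.28). ITGA6 (307 and 294 CPM in shNT, 146 and 134 CPM in shTIP60, -1.11 ± 0.15) and ITGB5 (-0.95 ± 0.14) fell, and ITGB3 rose from a low level (0.449 and 0.397 CPM in shNT, 3.22 and 3.13 CPM in shTIP60, 2.90 ± 0.39). ITGB8 was at 2.53 ± 0.390 CPM in shCDK8 cells and did not pass the test against them (0.04 ± 0.29, adjusted p = 0.924). Of 27 matrix proteases and inhibitors 13 were higher and 4 lower, beside 11.3% and 10.5% of all genes. Matrilysin was among the higher genes (MMP7, 0.276 and 0.364 CPM in shNT, 2.46 and 2.07 CPM in shTIP60, 2.81 ± 0.44), and the sheddase ADAM19 (259.9 and 189.6 CPM in shNT, 75.5 and 71.6 CPM in shTIP60, -1.61 ± 0.18) and the elastase inhibitor SERPINA1 (37.1 and 38.9 CPM in shNT, 13.0 and 13.0 CPM in shTIP60, -1.55 ± 0.24) led the lower. The count of higher members was 8, 5, 3 and 5 without shNT A, shNT B, shTIP60 A and shTIP60 B. Of 28 genes of collagen processing and basement membrane 9 were higher and 1 lower, among the higher perlecan (HSPG2, 386 and 339 CPM in shNT, 769 and 698 CPM in shTIP60, 1.02 ± 0.22), the laminin chain LAMA5 (0.68 ± 0.15) and the collagen chaperone SERPINH1 (0.89 ± 0.17). That count of higher members was 8, 4, 4 and 6 in the same 4 fits. LAMA5 lost its call without shNT B (adjusted p up to 0.0779).

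Genes of growth factor signalling moved in both directions. The shares of all genes were 11.3% higher and 10.5% lower. Of 18 genes of the EGF family, their receptors and feedback inhibitors 4 were higher and 7 lower, and 3, 2, 2 and 2 higher in the 4 fits. The Sprouty inhibitors of receptor signalling SPRY4 (201 and 248 CPM in shNT, 81.8 and 85.9 CPM in shTIP60, -1.42 ± 0.23), SPRY1 (-1.22 ± 0.27) and SPRY2 (-0.85 ± 0.19) were lower, as was the ERK phosphatase DUSP6 (476 and 395 CPM in shNT, 124 and 107 CPM in shTIP60, -1.92 ± 0.18, adjusted p = 1.75e-06) of the immediate early list. These are known to be induced by ERK signalling and to restrain it. The ligands differed from each other: TGFA (204 and 271 CPM in shNT, 109 and 119 CPM in shTIP60, -1.06 ± 0.14) and NRG1 (-1.68 ± 0.26) were lower, and amphiregulin (AREG, 22.5 and 14.3 CPM in shNT, 68.6 and 57.6 CPM in shTIP60, 1.78 ± 0.19) and epiregulin (EREG, 0.91 ± 0.21) higher. Of 30 immediate early genes 5 were higher and 7 lower, with KLF4 (142 and 185 CPM in shNT, 57.3 and 58.7 CPM in shTIP60, -1.49 ± 0.15) and NR4A2 (-1.36 ± 0.27) lower and JUND (1.06 ± 0.20) higher. In the 4 fits 6, 3, 3 and 4 of them were higher and 6, 8, 7 and 5 lower. SPRY1 was not called without shTIP60 B (adjusted p up to 0.0663), and EREG without shNT A (adjusted p up to 0.0577).

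Wnt genes moved in both directions. Of 19 Wnt feedback genes and targets 5 were higher and 4 lower, beside 11.3% and 10.5% of all genes, and their median was -0.01. Beside RNF43, which fell, the feedback scaffold AXIN2 was at 6.66 and 9.03 CPM in shNT, 32.9 and 30.2 CPM in shTIP60 (2.01 ± 0.17), the secreted Wnt antagonist DKK1 at 375 and 399.7 CPM in shNT, 1637 and 1485 CPM in shTIP60 (2.01 ± 0.16) and BMP4 at 78.4 and 76.3 CPM in shNT, 282 and 268 CPM in shTIP60 (1.83 ± 0.17). All 3 were higher in both shTIP60 libraries. Of 33 genes of TGF-beta and BMP signalling 6 were higher and 3 lower, the activin subunit INHBB (0.483 and 0.529 CPM in shNT, 5.37 and 5.75 CPM in shTIP60, 3.45 ± 0.31) and the BMP-induced ID3 (45.4 and 61.4 CPM in shNT, 176 and 208 CPM in shTIP60, 1.84 ± 0.21) among the higher. The count of lower members was 3, 0, 0 and 2 in the 4 fits. The angiogenic and vasoactive factors had 7 of 19 higher and 3 lower, and 7, 5, 5 and 6 higher and 2, 1, 2 and 1 lower in the 4 fits. The endothelin EDN1 was at 0.587 and 1.09 CPM in shNT, 22.3 and 18.7 CPM in shTIP60 (4.60 ± 0.37) and EDN2 at 0.656 and 0.562 CPM in shNT, 12.3 and 14 CPM in shTIP60 (4.43 ± 0.32). The co-receptor NRP2 (0.690 and 0.364 CPM in shNT, 8.45 and 7.82 CPM in shTIP60, 3.95 ± 0.35) and ANGPT2 (2.69 ± 0.49) rose from low levels. Of 27 YAP and SRF targets 5 rose and 5 fell, and 4, 3, 3 and 3 rose and 4, 4, 3 and 3 fell in the 4 fits. Among them were CTGF, a matricellular protein (10.1 and 7.14 CPM in shNT, 56.5 and 50.0 CPM in shTIP60, 2.63 ± 0.22), and the ecto-nucleotidase NT5E (159 and 140.2 CPM in shNT, 26.0 and 27.8 CPM in shTIP60, -2.47 ± 0.17), which were called in opposite directions.

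The lists of amino acid metabolism, oxidative phosphorylation and the TCA cycle had more lower than higher members. Over all genes 10.5% were lower and 11.3% higher. The median GC content of the oxidative phosphorylation and TCA lists was 44.6%. Among all genes with a GC value, the fifth with a median of 43.3% had 15.2% lower and 8.13% higher. The part of GC content in these counts was not tested. Of 30 ATF4 targets and tRNA synthetases 9 were lower and 4 higher (median -0.30). The enzymes of serine and one-carbon metabolism SHMT2 (349 and 316 CPM in shNT, 112 and 116 CPM in shTIP60, -1.55 ± 0.14, adjusted p = 1.59e-06) and PHGDH (282 and 221 CPM in shNT, 143 and 132 CPM in shTIP60, -0.87 ± 0.14) and the threonyl-tRNA synthetase TARS (-0.85 ± 0.15) were lower, and the transcription factor CEBPB (85.8 and 61.1 CPM in shNT, 298 and 271 CPM in shTIP60, 1.95 ± 0.17) was higher. The higher count was 3, 1, 3 and 3 and the lower count 7, 5, 4 and 5 without shNT A, shNT B, shTIP60 A and shTIP60 B. Of 44 nuclear genes of oxidative phosphorylation 7 were lower and 0 higher (median -0.21), the complex I subunit NDUFC2 (16.2 and 25.5 CPM in shNT, 7.19 and 8.92 CPM in shTIP60, -1.38 ± 0.21) and the ATP synthase subunit ATP5B (-0.70 ± 0.13) with the smallest adjusted p, and the count fell to 3, 2 and 2 without shNT B, shTIP60 A and shTIP60 B. Of 29 genes of the TCA cycle and pyruvate oxidation 6 were lower and 2 higher: the pyruvate dehydrogenase phosphatase PDP1 fell (-1.06 ± 0.21) and pyruvate carboxylase (PC, 0.73 ± 0.15) rose. The lower count was 3, 1, 1 and 2 without shNT A, shNT B, shTIP60 A and shTIP60 B. PDP1 was at a level not called against shCDK8 (0.11 ± 0.20, adjusted p = 0.722). PC lost its call without shNT B (adjusted p up to 0.0577).

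Cholesterol and fatty acid synthesis was a list whose count differed between the oxygen levels. In hypoxia 1 of 34 was higher, the desaturase FADS1 (0.49 ± 0.14), and 1 lower, the sterol regulator SREBF2 (563 and 489 CPM in shNT, 348 and 354 CPM in shTIP60, -0.58 ± 0.13), with a median of -0.05. These counts were 2, 0, 0 and 0 higher and 1, 3, 0 and 1 lower in the 4 fits. In normoxia 22 were lower and 0 higher, beside 8.13% and 10.3% of all genes, with a median of -0.66. The difference between the oxygen levels was called for 0 of the 34 by edgeR, and 18 had an unadjusted p under 0.05, beside 5.86% of all genes. FADS1 was not called without shNT B, shTIP60 A or shTIP60 B (adjusted p up to 0.234), and SREBF2 without shTIP60 A (adjusted p up to 0.0535).

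The remaining lists are given by their counts and leading genes, beside 11.3% of all genes higher and 10.5% lower. A count near or below these shares is no result about its list. Of 32 autophagy and lysosome genes 11 were higher and 2 lower, including the autophagy receptor SQSTM1 (449 and 346 CPM in shNT, 885 and 1026 CPM in shTIP60, 1.27 ± 0.14) and the protective protein CTSA (1.22 ± 0.14), with NPC2 lower (-0.93 ± 0.15). The higher count was 9, 3, 3 and 4 without shNT A, shNT B, shTIP60 A and shTIP60 B. Of 37 apoptosis regulators 8 were higher and 3 lower, the BH3 protein BCL2L11 (15.8 and 22.1 CPM in shNT, 37.5 and 36.5 CPM in shTIP60, 0.97 ± 0.17) and CASP8 (0.70 ± 0.13) higher and BCL2 (-2.41 ± 0.45) lower, with 10, 6, 6 and 6 higher and 3, 1, 2 and 1 lower in the 4 fits. Of 47 Polycomb, deacetylase and remodeller genes 3 were higher and 7 lower, with the remodeller CHD7 (49.2 and 53.4 CPM in shNT, 18.7 and 20.2 CPM in shTIP60, -1.40 ± 0.13) and the deacetylase HDAC2 (110.1 and 144 CPM in shNT, 65.5 and 70.9 CPM in shTIP60, -0.90 ± 0.16) lower, and the higher count was 2, 0, 1 and 1 and the lower count 7, 3, 3 and 4 in the 4 fits. Of 21 genes of the insulin and IGF axis 4 were higher and 4 lower: beside IGFBP3, IGFBP6 rose (324 and 211 CPM in shNT, 603 and 539 CPM in shTIP60, 1.09 ± 0.23), and the transcription factor FOXO1 (18.4 and 22.1 CPM in shNT, 6.23 and 7.49 CPM in shTIP60, -1.56 ± 0.20) and the PI3-kinase regulatory subunit PIK3R1 (-1.21 ± 0.14) fell, the lower count being 5, 2, 2 and 2 in the 4 fits. Of 23 JmjC demethylases, oxygen-dependent enzymes, 1 was higher and 3 lower, KDM5A (-0.81 ± 0.15) and KDM3B (-0.56 ± 0.13) among the lower, and 3, 2, 1 and 2 were lower in the 4 fits. Of 23 Notch and Hedgehog genes 3 were higher and 2 lower, of 23 genes of endoplasmic reticulum chaperones and the unfolded protein response 3 and 1, of 18 clock genes 2 and 0, of 24 clustered histone genes 2 and 1, of 12 MYC network genes 1 and 0 and of 11 metallothioneins 0 and 1. Of 45 cytoplasmic ribosomal protein genes 3 were lower and 0 higher, of 34 ribosome biogenesis genes 2 were lower and 1 higher, and of 20 cytosolic heat shock genes 1 was higher. The count of lower ribosomal protein genes was 5, 0, 0 and 0 and of lower ribosome biogenesis genes 1, 0, 0 and 0 in the 4 fits, and that of higher unfolded protein response genes 2, 1, 1 and 1. Among the clock, histone, MYC, metallothionein and heat shock lists each single call, and 1 of each pair of calls, was lost in at least 1 of the 4 fits. IGFBP6 lost its call without shNT B (adjusted p up to 0.0565), and KDM3B without shTIP60 A (adjusted p up to 0.0599).

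**Figure D4:**
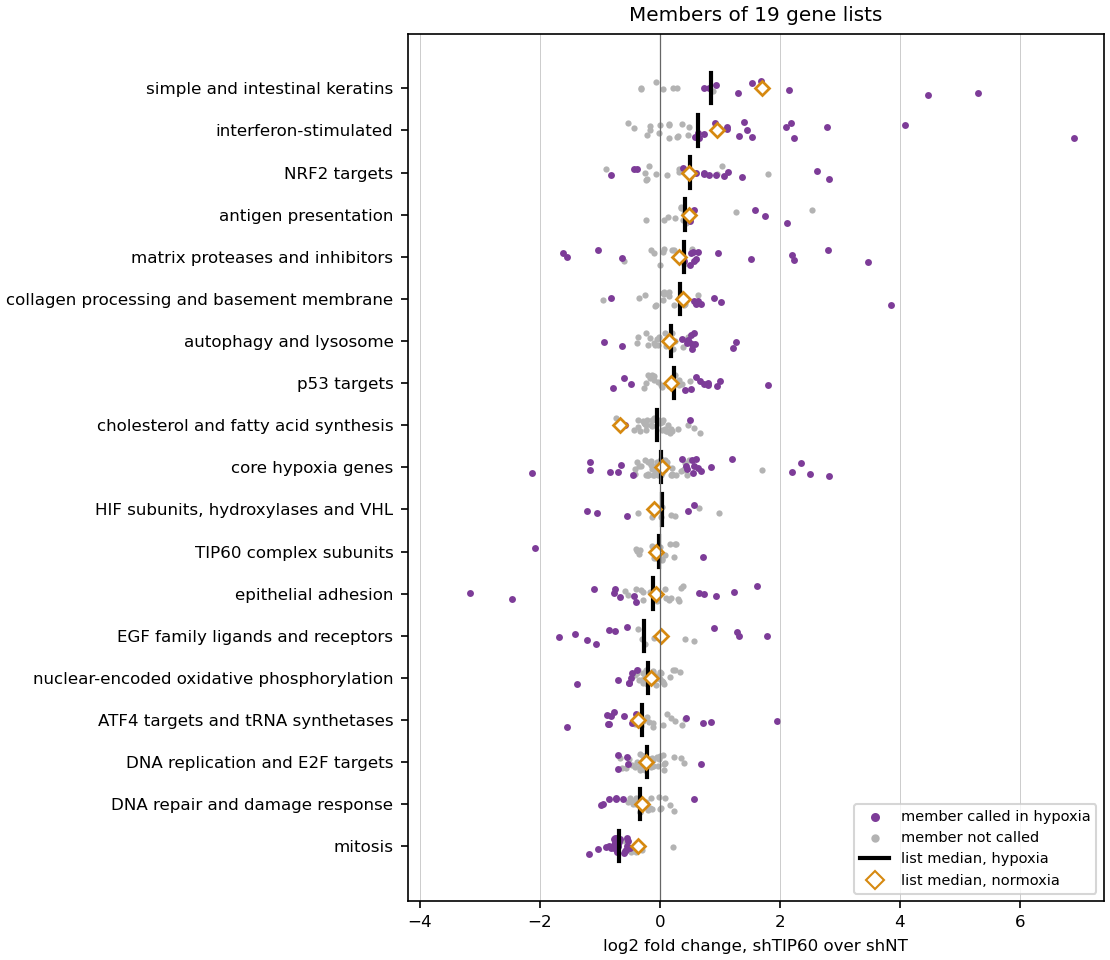
Log2 fold change of shTIP60 over shNT in hypoxia for the members of 19 gene lists (1 point each, purple where called), with the list median in hypoxia as a bar and in normoxia as a diamond. The mitosis list has a median of -0.69 and the keratin and interferon-stimulated lists of 0.85 and 0.64.

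The line difference in hypoxia was set beside the one in normoxia, which uses 4 other libraries. Of 1755 genes higher in hypoxia 1063 were also called higher in normoxia (60.6% of the hypoxic and 66.6% of the normoxic list), and of 1628 lower genes 895 were also called lower (55.0% and 70.9%). The sign was the same in normoxia for 1709 of the 1755 and 1580 of the 1628. Across the 15520 genes, which are not independent replicates, the log2 fold changes had Pearson r = 0.788. Genes called in opposite directions numbered 7: CYP26B1 (0.43 ± 0.14 in hypoxia), HAUS6 (0.48 ± 0.13), LPIN1 (0.41 ± 0.14) and the urokinase receptor PLAUR (0.63 ± 0.18) were higher in hypoxia and lower in normoxia, and HOXA4 (-0.71 ± 0.22), IL6R (-0.60 ± 0.14) and the matrix protein THBS1 lower in hypoxia and higher in normoxia. Each of the 7 lost its hypoxic call in at least 1 fit without a library. Of these, THBS1 differed most, at -0.91 ± 0.19 in hypoxia and 0.63 ± 0.20 in normoxia. For none of the 7 did the difference between oxygen levels pass edgeR's test. Its adjusted p was 0.0563 for THBS1 and ran from 0.0512 (IL6R) to 0.175 (HOXA4). CYP26B1 was not called without any 1 of the 4 libraries (adjusted p up to 0.218), and HAUS6 without shNT A or shTIP60 A (adjusted p up to 0.117). LPIN1 lost its call without shNT B, shTIP60 A or shTIP60 B (adjusted p up to 0.338), and PLAUR without shNT B, shTIP60 A or shTIP60 B (adjusted p up to 0.217). HOXA4 was not called without any 1 of the 4 libraries (adjusted p up to 0.191), and IL6R without shTIP60 A (adjusted p up to 0.0595). THBS1 lost its call without shTIP60 B (adjusted p up to 0.0547).

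**Figure D5:**
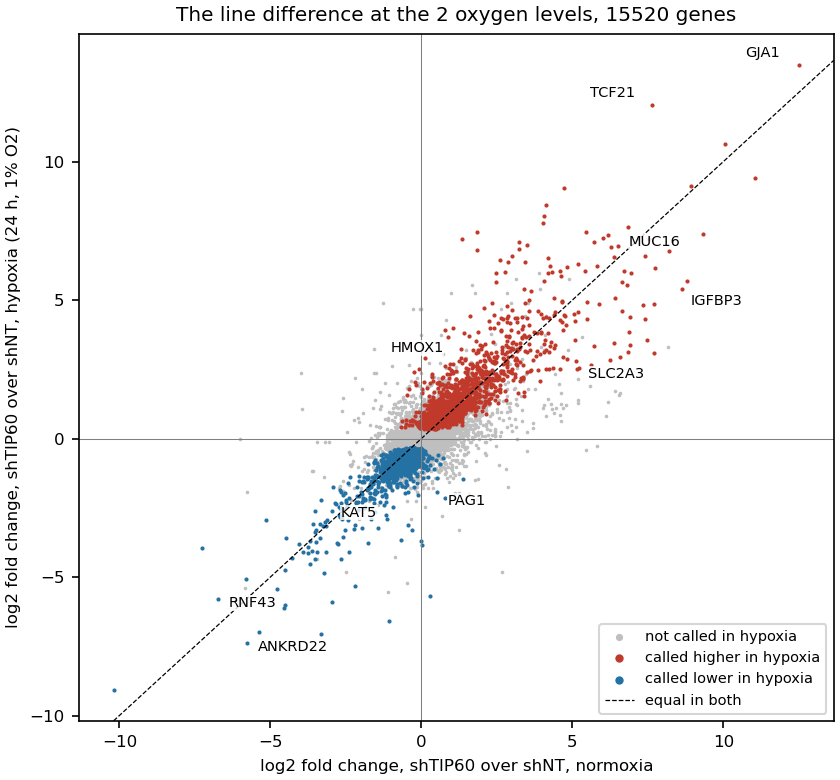
Log2 fold change of shTIP60 over shNT in hypoxia against that in normoxia for 15520 genes, red and blue where called in hypoxia, with the dashed line of equal change. The sign is the same at both oxygen levels for 1709 of 1755 genes higher in hypoxia and 1580 of 1628 lower; fitted values of genes with 0 counts in a group, such as GJA1, depend on the fit's prior and are no estimate of size.

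The test of the difference itself called 5 of 15520 genes (0.0322%), 1 higher (0.00644%) and 4 lower (0.0258%), and 910 had an unadjusted p under 0.05. DESeq2 called 59. IGFBP3 rose with hypoxia in shNT cells, from 1.5 ± 0.168 to 35.1 ± 10.8 CPM (SD, n = 2), and from 604 ± 19.3 to 1492 ± 57.1 CPM in shTIP60. The line difference was thus smaller in hypoxia, 5.41 ± 0.27 against 8.64 ± 0.33. SLC2A3 followed the same pattern, with a line difference of 5.17 ± 0.26 in normoxia and 2.50 ± 0.22 in hypoxia. HMOX1 had a larger line difference in hypoxia (2.82 ± 0.15 against 1.45 ± 0.14). The Src-binding adaptor PAG1 was at 18.9 and 17.8 CPM in shNT, 4.88 and 4.69 CPM in shTIP60 in hypoxia (-1.94 ± 0.24) and did not pass the test in normoxia (0.52 ± 0.24), and the zinc finger gene ZNF608 was called higher in normoxia (1.43 ± 0.20) and not called in hypoxia (-0.36 ± 0.19). The difference was no longer called for HMOX1 in 6 of the 8 fits that left out a library, all but those without hypoxic shNT A and hypoxic shTIP60 A (adjusted p up to 0.211). For PAG1 it was lost in 4 of them, without normoxic shNT B, normoxic shTIP60 A, hypoxic shTIP60 A or hypoxic shTIP60 B (adjusted p up to 0.173). For ZNF608 it was lost in each of the 8 (adjusted p up to 0.262), and for IGFBP3 and SLC2A3 in 0 of them (adjusted p up to 0.0329).

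GC content moved with the fold changes. Over 14824 genes with a value (95.5%), the fifth with the lowest GC content (median 38.4%) had a median of -0.198, with 4.18% called higher and 16.6% lower, and the fifth with the highest (median 61.9%) a median of 0.204, with 18.1% and 3.95%. The same gradient was present in normoxia (-0.132 to 0.12) and against shCDK8 (-0.130 to 0.139) and HIF1A-null cells (-0.226 to 0.212). The shares of all genes set beside list counts take no account of GC content. The keratin list had a median GC content of 57.5% and the collagen and basement membrane list of 55.9%. The fifth with a median of 55.5% had 15.4% called higher and 6.81% lower. The part of GC content in those counts was not tested. Chromosomes differed too, and their GC content was not computed. Among the autosomes the lowest medians were -0.201 for chromosome 13 and -0.179 for chromosome 4. The highest were 0.107 and 0.0946, for chromosomes 17 and 22. With GC-corrected offsets, an alternative chosen after the data were seen, 4273 genes were called, among them 28 mitosis genes lower, 19 interferon-stimulated genes higher, 12 NRF2 targets higher and 2 lower, and 13 core hypoxia genes higher and 10 lower. The part of library preparation in the gradient was not tested.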

How the data were processed

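RNA-seq of 16 HCT116 libraries was deposited as 1 table of counts per gene symbol. DESeq 1.14.0, HTSeq 0.5.4p5, GSNAP and the build hg19 are named in the submitters' processing notes, and the deposited values are whole-number counts with no normalization. The annotation, the strand setting and the read filters are not given in the sources used here, so reads of overlapping or antisense genes and of near-identical copies may be shared. Columns were assigned by line and oxygen level, and they carry library numbers, which name A and B.

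Counts were analysed with edgeR 4.0.16 (limma 3.58.1, R 4.3.3): filterByExpr by group (minimum count 10, total 15), TMM factors, and a robust quasi-likelihood fit of all 8 groups, which leaves 8 residual degrees of freedom. P-values were adjusted by Benjamini-Hochberg over all genes tested, with a threshold of 0.05. In simulated counts, modelled on the hypoxic comparison, 200 of 15365 genes were changed. Of genes changed 1.5, 2 and 4-fold, 22.4%, 73.1% and 100% were recovered, and 10 of 140 calls were false. Far fewer genes were changed than were called in the data (3383 of 15520), so recovery there may differ. Named genes were KAT5, HIF1A and CDK8, the hypoxia panel, the 12 highest and 12 lowest called genes whose higher group averaged at least 5 CPM and whose libraries did not overlap (pseudogenes, locus identifiers and small RNA copies passed over), up to 6 each way for the difference between oxygen levels, up to 4 members per list with the smallest adjusted p, and members of the TIP60, HIF and Mediator lists. Some genes that this rule names are not reported here. Others named were chosen after their values were seen. The members and lists were chosen with earlier results of these data known. Alternatives were other scalings, filters, a test against 1.5-fold, a block, fewer groups, thinning, DESeq2 1.42.0, each library left out and, chosen after seeing the data, GC-corrected offsets. Promoter letters come from RefSeq (GRCh38.p14) and gene positions from GENCODE 44 on GRCh37.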

Additional observations from a re-analysis of the deposited data

Results flagged for a closer look

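The line difference (shTIP60 over shNT) itself differed between hypoxia and normoxia for 5 genes by the interaction term of edgeR's quasi-likelihood test. The log2 difference of hypoxia minus normoxia was 1.37 for HMOX1, -3.23 for IGFBP3, -2.46 for PAG1, -2.67 for SLC2A3 and -1.79 for ZNF608. IGFBP3 and SLC2A3 were higher in shTIP60 at both oxygen levels, HMOX1 too, and PAG1 and ZNF608 passed the test at 1 of them.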

How the results depend on the processing

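The count of genes called in hypoxia was 934 against a 1.5-fold difference and 1709 to 3074 with 1 library left out. In normoxia it was 835 against 1.5-fold, 4287 with the replicate block, 4830 with only the groups compared and 1368 to 1668 with 1 library left out. The difference between oxygen levels was called for 106 genes with no filter, 10 at a mean of 5 CPM or more, 3 against 1.5-fold, 72 with the replicate block, 51 with only the groups compared, 44 with GC-corrected offsets, 59 with DESeq2 and 2 to 10 with 1 library left out. Against shCDK8 the count was 1841 against 1.5-fold and 3517 to 3862 with 1 library left out, and against HIF1A-null cells 3253 against 1.5-fold. The cause was not tested. The block is the series of library numbers, which deviated together only in part (correlation 0.119 between the hypoxic groups, 0.0307 to 0.336 over all pairs), and with it 4988 genes were called in hypoxia.

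Signs turned only among panel genes that were not called, with log2 values near 0. ANGPTL4 was at 0.00914 with RLE factors, 0.0175 with library totals, 0.0388 at 5 CPM or more, 0.0124 with the block, 0.00548 with only the groups compared, 0.00883 with DESeq2 and -0.2513 to 0.296 with 1 library left out. ADM was at 0.00704, 0.0121, 0.0358, 0.00154 and 0.00653 under the same settings without the block. LDHA was at 0.0119 at 5 CPM or more. With GC-corrected offsets LDHA, PDK1, P4HA1 and KDM3A were at 0.12, 0.140, 0.0999 and 0.0461. With 1 library left out ADM ran from -0.1678 to 0.176, PDK1 from -0.2357 to 0.166, KDM3A from -0.2954 to 0.137, P4HA1 from -0.2083 to 0.0872, LDHA from -0.1294 to 0.0766 and NDRG1 from -0.1674 to 0.0194. Of 3246 alternative values of named genes 2898 kept direction and side of the threshold, 322 lost the call, 1 gained it and 25 changed sign. The self-test, in which 200 of 15365 genes were changed, recovered 22.4% of 1.5-fold changes. In the data 3383 of 15520 genes were called. The adjusted threshold depends on the share of changed genes, so this recovery need not hold for the data.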
